A study of Mus musculus with 8 samples.

Results

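The Cyp2d genes encode a subfamily of cytochrome P450 enzymes and were taken as the 9 rows of the deposited liver count table, out of 24940 genes, whose symbols are *Cyp2d9*, *Cyp2d10*, *Cyp2d11*, *Cyp2d12*, *Cyp2d13*, *Cyp2d22*, *Cyp2d26*, *Cyp2d34* and *Cyp2d40*. The RNA came from livers of C57BL/6 males, 4 FXRKO and 4 BCL6LKOFXRKO. All 8 mice carried floxed *Bcl6* (*Bcl6* fl/fl) and were homozygous for the loss of FXR (farnesoid X receptor, gene *Nr1h4*) in the whole body, and the BCL6LKOFXRKO mice carried Alb-Cre in addition, so that both groups share the FXR loss and differ in the Cre. Alb-Cre is driven by the albumin promoter and is used to delete in hepatocytes. Which other cells of the liver kept *Bcl6* was not measured here. A piece of each liver was used. No age is stated for these mice, and the study's methods describe its mice in general as fed or briefly fasted. The comparison asks what hepatocyte loss of the repressor BCL6 adds to the loss of FXR, and in this design the *Bcl6* deletion, the Cre and the liver disease of the double knockout mice cannot be told apart.

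Cytochrome P450 enzymes sit in the endoplasmic reticulum of hepatocytes, hold a heme group and take electrons from P450 oxidoreductase, at times through cytochrome b5, to oxidize drugs, steroids and other lipids. The CYP2D enzymes of humans are known for clearing a large set of common drugs through CYP2D6, whereas mice carry a cluster of Cyp2d genes in place of the single active human gene. *Cyp2d9* is a testosterone hydroxylase of mouse liver with male-predominant expression, kept up by pulsatile growth hormone through STAT5b.

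Each liver gave between 7586241 and 11839503 counts on genes. *Bcl6* was at 56.2, 65.1, 21.1 and 55.6 CPM (read counts relative to the library total, corrected with TMM factors) in FXRKO livers 1 to 4 and at 11.9, 4.61, 5.54 and 7.71 CPM in BCL6LKOFXRKO livers 5 to 8, so the targeted gene followed the labels in all 8 livers. Albumin took 4.04% to 5.16% of all counts in FXRKO livers and 11.9% to 13.2% in BCL6LKOFXRKO livers. Of 12 hepatocyte markers 11 were measured, and 3 were called lower and 2 higher. Their summed level was 70685 to 82742 CPM in FXRKO and 160624 to 180715 CPM in BCL6LKOFXRKO livers, and without albumin the ranges were 32499 to 37238 and 27459 to 33958 CPM. The summed level of 10 stellate cell and fibroblast markers, 7 of them called higher, was 230 to 327 CPM in FXRKO livers and 467 to 585 CPM in BCL6LKOFXRKO livers. The 8 cholangiocyte markers, with 5 tested and 2 called higher, summed to 58.1 to 84.2 and 91.1 to 155 CPM, with *Cftr* at no more than 3 counts in every liver. The sums of 8 macrophage markers (2 called higher, 357 to 504 against 503 to 830 CPM) and of 6 endothelial markers (1 called higher, 133 to 185 against 173 to 230 CPM) overlapped between genotypes. None of 8 T and B cell markers passed the expression filter, and their sum was 2.87 to 5.37 against 5.63 to 10.2 CPM. None of these markers was at 0 in every liver, and their part in the values below was not tested.

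The 9 genes lie on mm10 chromosome 15 between 82370527 and 82794245, a span of 423.7 kb, with 2 of them on the plus strand (*Cyp2d9* and *Cyp2d12*) and 7 on the minus strand. The table marks 8 as protein-coding and *Cyp2d13* as a pseudogene. A further row of the cluster, the pseudogene *Cyp2d37-ps*, is no member of the set and is given for comparison. Several of the genes are close copies of each other. The transcript of *Cyp2d9* was most like that of *Cyp2d10*, with 88.4% identity over the aligned length, followed by *Cyp2d12* with 88.0% and *Cyp2d11* with 86.7%, and it was 78.5% identical to that of *Cyp2d26*. Because the authors kept reads of 100 bases with 1 location in the genome, the share of 100-base windows of a transcript that also occurs, letter for letter, in a transcript of another gene was counted in GENCODE M21. It was 14.8% for *Cyp2d10*, 12.2% for *Cyp2d11*, 9.86% for *Cyp2d9* and 3.79% for *Cyp2d12*, and at most 0.375% for *Cyp2d22*, *Cyp2d26*, *Cyp2d34* and *Cyp2d40*. Reads from such windows have more than 1 location and add nothing to either gene, while the rest of each transcript differed from every other by at least 1 base per window. How far the aligner assigned the remaining reads correctly was not tested. *Cyp2d13* has no transcript of that name in this annotation, and its interval lies within that of the antisense gene *Gm49431*. As the stated counting options name no strand, reads of these genes cannot be told apart.

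A stretch of the coding sequence shows how reads of *Cyp2d9* and *Cyp2d10*, alike in sequence and far apart in their response, are told apart. Over the aligned coding sequence of *Cyp2d9* and *Cyp2d10*, 1413 windows of 100 bases held between 0 and 21 differences, with a median of 7, and 65 windows held none. The lines below give a window with 7 differences, which lies in exon 1 of *Cyp2d9* (GRCm38, chr15:82452535-82452634, plus strand), from the GENCODE transcripts, with the bases that differ in capitals.
*Cyp2d9* coding window: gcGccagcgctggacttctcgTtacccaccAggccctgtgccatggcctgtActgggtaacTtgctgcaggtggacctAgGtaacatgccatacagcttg
*Cyp2d10* coding window: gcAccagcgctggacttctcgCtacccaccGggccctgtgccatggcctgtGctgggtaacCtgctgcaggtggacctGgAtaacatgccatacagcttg

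The 250 bases upstream of the annotated start are shown for *Cyp2d9*, *Cyp2d10* and *Cyp2d26*, the members with the highest levels in FXRKO livers (RefSeq, GRCm38.p6, 5′ to 3′ on the gene's strand). Of these *Cyp2d9* fell furthest, while the falls of *Cyp2d10* and *Cyp2d26* were not told apart. The table of promoters held 5 of the 9 members. Capitals mark the longest run shared letter for letter by *Cyp2d9*, *Cyp2d10*, *Cyp2d11* and *Cyp2d40*, of 15 bases, which occurs in 4 of 32851 upstream regions of this length on either strand, namely in these 4 genes.
Cyp2d9 upstream region, chr15:82452127-82452376, plus strand: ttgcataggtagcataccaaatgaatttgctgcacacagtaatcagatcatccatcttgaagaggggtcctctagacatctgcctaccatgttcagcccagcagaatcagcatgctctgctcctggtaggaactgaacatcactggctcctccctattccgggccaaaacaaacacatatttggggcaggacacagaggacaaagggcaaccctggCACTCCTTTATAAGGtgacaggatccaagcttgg
Cyp2d10 upstream region, chr15:82407195-82407444, minus strand: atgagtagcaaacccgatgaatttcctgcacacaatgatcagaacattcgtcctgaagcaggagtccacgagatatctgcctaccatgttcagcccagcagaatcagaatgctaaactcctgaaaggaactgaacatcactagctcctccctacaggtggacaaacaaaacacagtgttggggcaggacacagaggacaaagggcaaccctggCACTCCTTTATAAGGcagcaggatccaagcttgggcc
Cyp2d26 upstream region, chr15:82794246-82794495, minus strand: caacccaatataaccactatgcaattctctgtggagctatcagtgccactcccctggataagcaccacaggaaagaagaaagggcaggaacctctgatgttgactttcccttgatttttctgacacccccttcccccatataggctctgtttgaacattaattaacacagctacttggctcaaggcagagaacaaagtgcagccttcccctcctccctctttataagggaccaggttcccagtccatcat

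The upstream regions of *Cyp2d9* and *Cyp2d10* were 82.3% identical, as were those of *Cyp2d9* and *Cyp2d11*, while *Cyp2d26* was 50.5% identical to *Cyp2d9*. *Cyp2d40* was 47.9% identical to *Cyp2d9* in this alignment, with the shared run 97 bases before its annotated start against 34 bases in *Cyp2d9*. The letters TATAAA, searched on both strands, were found in all 5 upstream regions, against 12.4% of all regions, and in *Cyp2d9*, *Cyp2d10*, *Cyp2d11* and *Cyp2d40* a match lies on the opposite strand inside the shared run. In *Cyp2d9* it starts 28 bases before the annotated start and in *Cyp2d10* and *Cyp2d26* 31 bases before it. The letters TTCNNNGAA, a form of the STAT5 motif present in 7.02% of all regions, and its subset TTCCTNGAA, present in 1.31% and one of the forms that BCL6 also binds, were not in any of the 5. Nor were AGGTCA (14.0% of all regions), CAAAGTCCA (0.384%) and the palindromic HNF1 motif (0.00913%), of which the first 2 are forms of a nuclear receptor half-site and of the HNF4 motif. Only these letters, with no mismatch, were searched, so variant forms of such sites would be missed. The windows are short, and sites outside them were not searched.

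Of the 9 members, 7 passed the expression filter and were tested. In BCL6LKOFXRKO livers 5 of them were lower than in FXRKO livers and none was higher, and the size of the fall ran from 102-fold in *Cyp2d9* and 7.92-fold in *Cyp2d13* to between 1.35-fold and 1.56-fold in *Cyp2d10*, *Cyp2d26* and *Cyp2d22*. *Cyp2d40* and *Cyp2d12* did not pass the test. All 7 log2 fold changes between the group means (log2FC, BCL6LKOFXRKO minus FXRKO) were negative, so that none was higher at an unadjusted p under 0.05 either, and DESeq2 and limma voom called none higher. Over all 12340 tested genes, 13.5% were called lower and 16.2% higher at an adjusted p under 0.05 (the quasi-likelihood test of edgeR, with P adjusted by Benjamini-Hochberg), 29.7% in either direction. With an absolute log2FC above 0.5 in addition, 4 members were lower, where 9.84% of all genes were lower and 14.1% higher. The same 5 members were lower in every BCL6LKOFXRKO liver than in every FXRKO liver, a separation seen in 15.2% of all tested genes, with 16.1% separated upward. The median log2FC was -0.64 over the 7 members and 0.01 over all tested genes. The number called lower was 6 with total counts as the only scaling and without BCL6LKOFXRKO liver 6, when *Cyp2d40* was called as well, and 4 without FXRKO liver 2 or BCL6LKOFXRKO liver 7, when *Cyp2d10* was not. In bulk tissue, fewer hepatocytes and less RNA per hepatocyte cannot be told apart.

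*Cyp2d9* (NM_010006, chromosome 15 from 82452377 to 82456827) was counted 11826, 12183, 15229 and 8341 times in FXRKO livers 1 to 4 and 95, 50, 138 and 234 times in BCL6LKOFXRKO livers 5 to 8. These counts correspond to 1229, 1520, 1635 and 788 CPM against 9.56, 6.06, 13.4 and 21.2 CPM. The lowest FXRKO liver, liver 4, was thus far above the highest BCL6LKOFXRKO liver, liver 8, while the spread within each genotype was wide. The log2FC was -6.67 with SE 0.44 (adjusted P = 8.53e-06, edgeR), and 22 of the 12340 tested genes had a lower one. The exact two-sided permutation test over the livers gave p = 0.0286, the smallest value that 4 against 4 livers allow. Without any single liver the log2FC stayed between -7.05 and -6.46. A signal of this gene remained in every BCL6LKOFXRKO liver, at 50 counts or more.

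*Cyp2d13* (NR_003552, chromosome 15 from 82636750 to 82642045) is the pseudogene of the set and lies between *Cyp2d34* and *Cyp2d37-ps*. It was at 254, 295, 268 and 284 CPM in FXRKO livers and at 30.4, 48.4, 30.3 and 30.1 CPM in BCL6LKOFXRKO livers. The groups did not overlap, and 3 of the 4 BCL6LKOFXRKO livers were nearly equal, with liver 6 above them. The log2FC was -2.99 with SE 0.16 (adjusted P = 4.57e-08, edgeR), and 63 tested genes had a lower one. The change was smaller than that of *Cyp2d9* and so was the spread between livers.

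The other 3 members that passed the test fell by a smaller amount. *Cyp2d26* (NM_029562, chromosome 15 from 82790107 to 82794245) measured 1158, 1194, 1174 and 1079 CPM in FXRKO livers and 746, 819, 718 and 736 CPM in BCL6LKOFXRKO livers, with a log2FC of -0.61 (SE 0.11, adjusted P = 0.00112, edgeR). *Cyp2d22* (NM_001163472, chromosome 15 from 82370527 to 82380260), which has been proposed as the mouse counterpart of human CYP2D6, was at 324, 378, 410 and 357 CPM and at 250, 213, 241 and 237 CPM, with a log2FC of -0.64 (SE 0.11, adjusted P = 0.00101, edgeR). In both genes every BCL6LKOFXRKO liver was below every FXRKO liver. They are the 2 end members of the cluster, with the other 7 between them. *Cyp2d10* (NM_010005, chromosome 15 from 82402846 to 82407194), the gene most like *Cyp2d9* in sequence, was at 849, 885, 828 and 756 CPM in FXRKO livers and at 636, 563, 556 and 709 CPM in BCL6LKOFXRKO livers. Its lowest FXRKO liver, liver 4, and its highest BCL6LKOFXRKO liver, liver 8, lay close to each other without overlap. The log2FC was -0.43 (SE 0.12, adjusted P = 0.0172, edgeR), and the adjusted p was 0.0546 without FXRKO liver 2 and 0.0509 without BCL6LKOFXRKO liver 7.

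*Cyp2d40* (NM_023623, chromosome 15 from 82759833 to 82764122) did not pass the test. It was at 187, 219, 172 and 145 CPM in FXRKO livers and at 118, 183, 119 and 156 CPM in BCL6LKOFXRKO livers, and BCL6LKOFXRKO liver 6 lay above FXRKO livers 3 and 4 and BCL6LKOFXRKO liver 8 above FXRKO liver 4. The log2FC was -0.33 (SE 0.16, adjusted P = 0.151, edgeR), with an approximate 95% interval of -0.65 to -0.01 that is not adjusted for the number of genes. Without BCL6LKOFXRKO liver 6 it was called, with an adjusted p of 0.0388, and with total counts as the only scaling the adjusted p was 0.0234. Neighbouring *Cyp2d37-ps* (NR_033515, chromosome 15 from 82688750 to 82690058) measured 43.3, 53.3, 40.1 and 42.7 CPM in FXRKO livers and 52.1, 56.7, 44.9 and 68.3 CPM in BCL6LKOFXRKO livers. Its ranges overlapped, and its log2FC of 0.31 (SE 0.14, adjusted P = 0.118, edgeR) had the opposite sign to those of the members. Without BCL6LKOFXRKO liver 7 its adjusted p was 0.0499.

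The last 3 members were close to the limit of detection in these livers. *Cyp2d12* (NM_201360, chromosome 15 from 82555089 to 82559413) was counted 13, 8, 7 and 33 times in FXRKO livers and 19, 5, 7 and 9 times in BCL6LKOFXRKO livers, with a log2FC of -0.65 (SE 0.50, adjusted P = 0.350, edgeR) and an interval of -1.62 to 0.32, too wide to place it among the other members. *Cyp2d11* (NM_001104531, chromosome 15 from 82389154 to 82394022) had 7, 9, 9 and 2 counts in FXRKO livers and 8, 0, 0 and 8 counts in BCL6LKOFXRKO livers, and *Cyp2d34* (NM_145474, chromosome 15 from 82615965 to 82620907) had 1, 0, 0 and 1 counts and 0, 0, 0 and 2 counts. Neither passed the expression filter, and no fold is given for them. A floor of 3 counts corresponds to 0.253 to 0.395 CPM of the raw totals and covers counting error only. At this depth, counts so low allow no useful comparison of the genotypes for these 3 genes. *Cyp2d11* lies between *Cyp2d22* and *Cyp2d10*, which were both measured well above this floor.

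**Figure D1:**
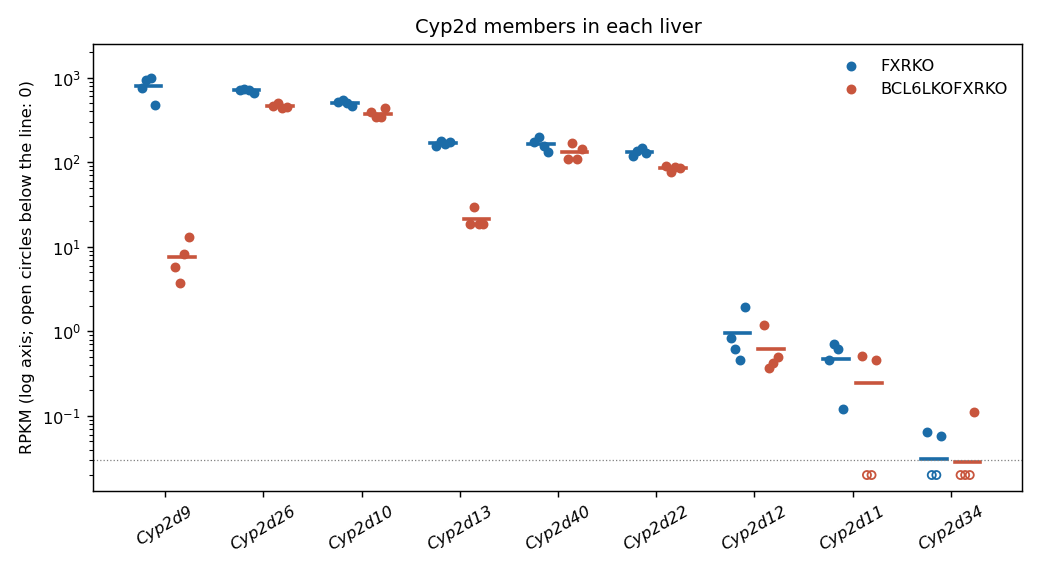
Level of each Cyp2d member in each liver in RPKM on a log axis, with FXRKO livers in blue and BCL6LKOFXRKO livers in red, a horizontal bar for the group mean (n = 4) and open circles under the dotted line for livers at 0. Cyp2d9 and Cyp2d13 show wide gaps between the genotypes, Cyp2d26, Cyp2d10 and Cyp2d22 narrow ones, and the 3 members on the right lie below 2 RPKM in every liver.

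Levels were compared between members per length, as RPKM (CPM divided by the exon length in kb that the table gives). In FXRKO livers the order of the mean levels was *Cyp2d9* at 788 ± 230 RPKM (SD, n = 4), *Cyp2d26* at 705 ± 30.8, *Cyp2d10* at 507 ± 33.3, *Cyp2d13* at 168 ± 11.1, *Cyp2d40* at 165 ± 28.0 and *Cyp2d22* at 133 ± 13.1 RPKM (SD, n = 4 for each). *Cyp2d9* was above *Cyp2d26* in 3 of the 4 livers, and the ranges of these neighbours overlapped, as did those of *Cyp2d13* and *Cyp2d40* and of *Cyp2d40* and *Cyp2d22*. *Cyp2d26* and *Cyp2d10* did not overlap. In BCL6LKOFXRKO livers the order was *Cyp2d26* at 462 ± 27.1, *Cyp2d10* at 377 ± 44.0, *Cyp2d40* at 132 ± 28.7, *Cyp2d22* at 85.1 ± 5.74, *Cyp2d13* at 21.3 ± 5.52 and *Cyp2d9* at 7.66 ± 3.97 RPKM (SD, n = 4 for each). Here none of these 6 overlapped with its neighbour in the order. The remaining members had means of 0.959 RPKM or less in both genotypes. The member with the highest mean in FXRKO livers was therefore the sixth in BCL6LKOFXRKO livers, and the order of *Cyp2d26*, *Cyp2d10*, *Cyp2d40* and *Cyp2d22* among themselves was kept.

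Summed over the 9 members, the level was 2422, 2718, 2692 and 2041 RPKM in FXRKO livers 1 to 4 and 1070, 1123, 1003 and 1145 RPKM in BCL6LKOFXRKO livers 5 to 8. The groups did not overlap, with means of 2468 ± 315 and 1085 ± 63.2 RPKM (SD, n = 4), a 2.27-fold difference. *Cyp2d9* made up 31.4% ± 5.80 of the sum in FXRKO livers and 0.705% ± 0.347 in BCL6LKOFXRKO livers (SD, n = 4), and its loss accounted for 56.5% of the drop in the sum. *Cyp2d26* accounted for 17.6% of the drop, *Cyp2d13* for 10.6%, *Cyp2d10* for 9.45%, *Cyp2d22* for 3.46% and *Cyp2d40* for 2.42%. Without *Cyp2d9* the sum was 1679 ± 94.7 and 1077 ± 62.5 RPKM, and without *Cyp2d13* as well it was 1511 ± 92.7 and 1056 ± 60.3 RPKM (SD, n = 4), still with no overlap between the genotypes. The ratio of the summed means, 0.44 of the FXRKO level, was 0.39 with total counts as the only scaling. The sum is a description of measured RNA and was not tested.

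**Figure D2:**
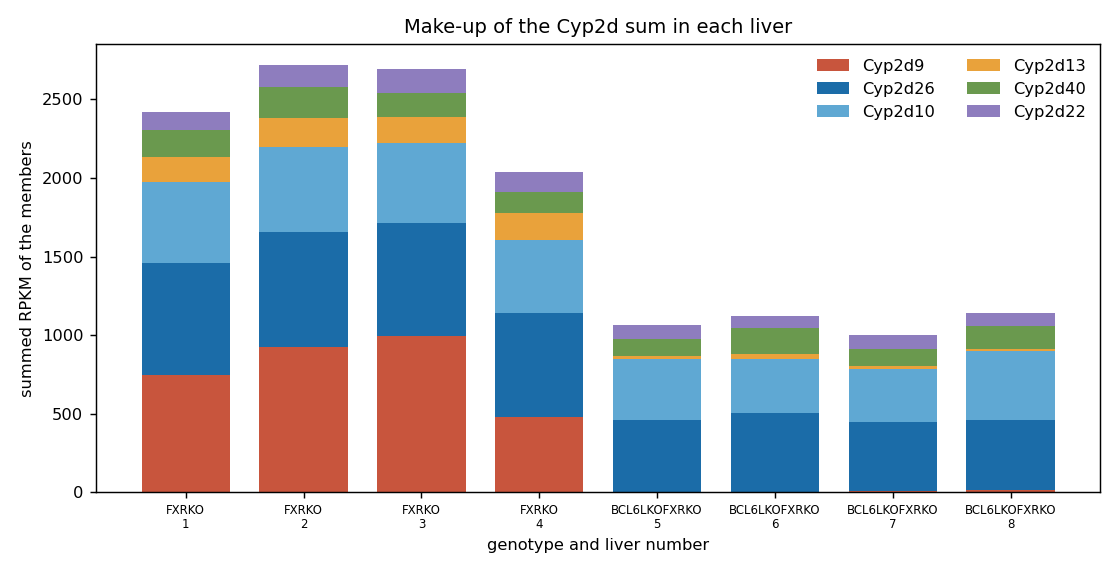
Summed RPKM of the Cyp2d members in each liver, as bars that start at 0, split by member (the 3 members near the limit of detection are too small to be drawn). Cyp2d9 forms 23.6% to 37.0% of the bar in FXRKO livers and at most 1.13% in BCL6LKOFXRKO livers, where Cyp2d26 and Cyp2d10 make up most of it.

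Whether the members differed from each other in their response was examined within livers, by the log2 ratio of the counts of 2 members in the same liver, which does not depend on the scaling between livers. The 7 tested members form 21 pairs. In 11 pairs the ratios of the 2 genotypes did not overlap, and each of these gave the exact two-sided permutation p of 0.0286 that is the smallest possible, or 0.0545 after Benjamini-Hochberg adjustment over the 21 pairs. No pair passed an adjusted 0.05, which this number of pairs and livers could have reached only with more pairs apart. The 11 pairs were the 6 of *Cyp2d9* with every other member and the 5 of *Cyp2d13* with *Cyp2d10*, *Cyp2d12*, *Cyp2d22*, *Cyp2d26* and *Cyp2d40*. The ratio of *Cyp2d9* to *Cyp2d10*, neighbours with similar sequence, was 0.59 ± 0.40 on the log2 scale in FXRKO livers and -5.75 ± 0.66 in BCL6LKOFXRKO livers (SD, n = 4), a difference of -6.34 with a 95% interval of -7.28 to -5.40. *Cyp2d9* also fell further than *Cyp2d13*, with a difference of -3.76 in their log2 ratio (95% interval -5.18 to -2.34).

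The other 10 pairs, among *Cyp2d10*, *Cyp2d12*, *Cyp2d22*, *Cyp2d26* and *Cyp2d40*, had overlapping ratios. The ratio of *Cyp2d22* to *Cyp2d26* differed between the genotypes by -0.03 on the log2 scale, with a 95% interval of -0.30 to 0.24. For *Cyp2d10* and *Cyp2d26* the difference was 0.18 (-0.08 to 0.43), for *Cyp2d10* and *Cyp2d22* it was 0.21 (-0.07 to 0.48), and for *Cyp2d26* and *Cyp2d40* it was -0.27 (-0.66 to 0.11). Intervals of this width leave room for unequal changes. The pairs with *Cyp2d12*, whose counts are few, had intervals over a range of more than 2 on the log2 scale. Their sign was not stable when single livers were left out.

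**Figure D3:**
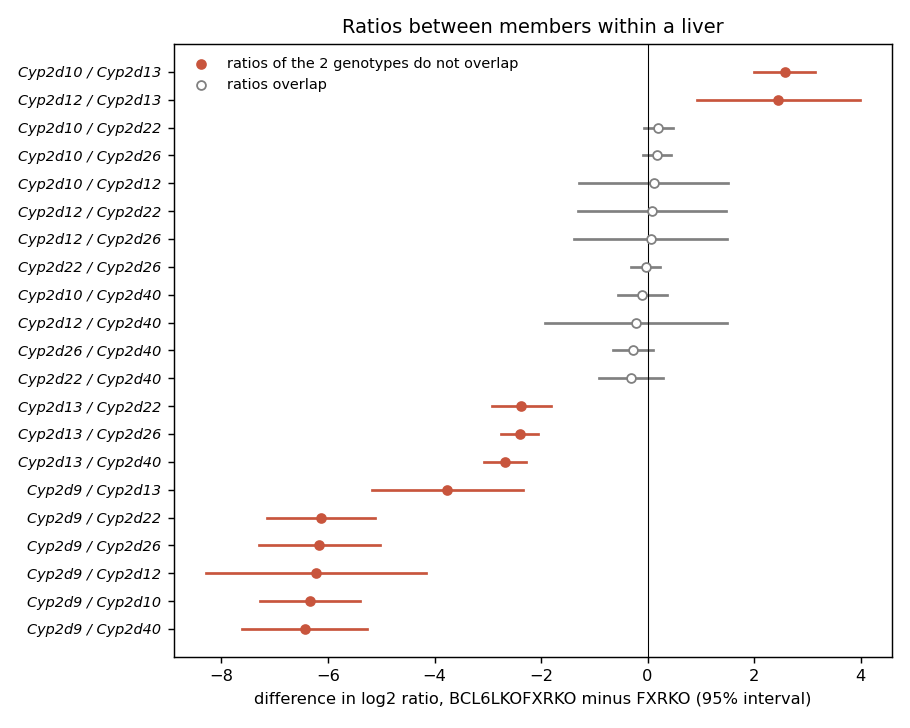
Difference between genotypes in the log2 ratio of 2 Cyp2d members within a liver (BCL6LKOFXRKO minus FXRKO), for 21 pairs with 95% intervals, filled red where the ratios of the 4 FXRKO and 4 BCL6LKOFXRKO livers do not overlap. The 11 filled pairs each hold Cyp2d9 or Cyp2d13, and the 10 open ones lie between -0.30 and 0.21.

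Along the chromosome, the members that fell most were set among others that changed little or were hardly measured. *Cyp2d9* lies between *Cyp2d10* and *Cyp2d12*, and *Cyp2d13* between *Cyp2d34* and *Cyp2d37-ps*. Of the 37 other genes in the table within 500 kb of the cluster, *Cyp2d37-ps* included, 19 were tested, and 1 was called lower and 1 higher. Their median log2FC was 0.13. The shares over all tested genes were 13.5% called lower and 16.2% higher. The neighbour called lower was *Desi1*, a desumoylating peptidase 354.3 kb outside the cluster, which fell from 60.1 ± 3.27 to 38.3 ± 1.85 CPM (SD, n = 4, log2FC -0.65, adjusted P = 0.000389, edgeR). The neighbour called higher was *Cyb5r3*, 359.3 kb outside on the other side. *Ndufa6*, *Smdt1* and *Tcf20*, close to the cluster and picked here for their position, were not called, with log2FC values of -0.20 for *Ndufa6*, 0.11 for *Smdt1* and 0.15 for *Tcf20*. The counts of neighbours called varied, with 3 called higher without BCL6LKOFXRKO liver 7 and 4 called lower without BCL6LKOFXRKO liver 8.

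**Figure D4:**
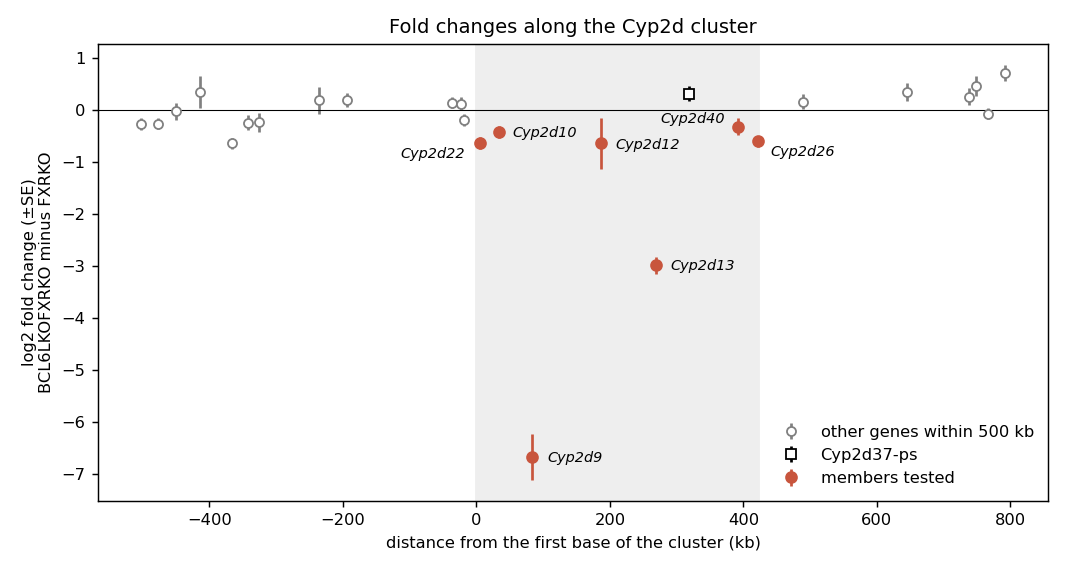
Log2 fold change (BCL6LKOFXRKO minus FXRKO, error bars for the standard error) of the tested genes against the distance of their midpoint from the first base of the cluster in kb, with the cluster shaded. The 7 tested members (filled red) lie below 0, Cyp2d9 and Cyp2d13 far below, while Cyp2d37-ps (open square) and the other genes within 500 kb (open circles) lie between -0.65 and 0.71.

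Of 7 genes of electron transfer to P450 enzymes, 1 was called lower and 1 higher (median log2FC -0.09). Of all tested genes, 13.5% were called lower and 16.2% higher. *Por*, the oxidoreductase that feeds electrons to all microsomal P450 enzymes, was at 386, 355, 457 and 638 CPM in FXRKO livers and at 402, 374, 640 and 687 CPM in BCL6LKOFXRKO livers. These ranges overlapped, with a log2FC of 0.19 (SE 0.23, adjusted P = 0.567, edgeR). *Cyb5a*, the microsomal cytochrome b5, was at 1014 ± 60.5 and 851 ± 103 CPM (SD, n = 4) and was not called, with an adjusted P of 0.143 (edgeR), or 0.0300 with total counts as the only scaling. *Cyb5b*, the outer mitochondrial cytochrome b5, fell from 576 ± 35.1 to 452 ± 41.0 CPM (SD, n = 4, log2FC -0.35, adjusted P = 0.0335, edgeR), a call lost without any 1 of FXRKO livers 1 to 4 or BCL6LKOFXRKO livers 5 and 7 (adjusted p of 0.0502 to 0.0924). Without BCL6LKOFXRKO liver 8, 2 genes of this list were called lower. *Cyb5r3*, which reduces cytochrome b5, rose from 751 ± 95.7 to 1227 ± 245 CPM (SD, n = 4, log2FC 0.71, adjusted P = 0.00426, edgeR).

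Of 12 genes of heme synthesis and breakdown, 3 were called lower and none higher by edgeR (median log2FC 0.11), and 3 were higher at an unadjusted p under 0.05, with 1 called higher by DESeq2 and 1 by limma voom. The edgeR shares over all tested genes were 13.5% lower and 16.2% higher. *Alas1*, the rate-limiting enzyme of heme synthesis, varied widely, from 315 to 1007 CPM in FXRKO livers and from 271 to 656 CPM in BCL6LKOFXRKO livers, and was not called (adjusted P = 0.742, edgeR). *Cpox*, coproporphyrinogen oxidase, was at 142, 129, 127 and 119 CPM in FXRKO livers and at 35.3, 29.6, 27.9 and 28.2 CPM in BCL6LKOFXRKO livers. It fell in every liver compared, with a log2FC of -2.09 (SE 0.12, adjusted P = 5.17e-08, edgeR). *Fech*, which inserts the iron, fell from 186 ± 16.0 to 115 ± 14.2 CPM (SD, n = 4, log2FC -0.70, adjusted P = 0.000765, edgeR). *Hmox2*, the constitutive heme oxygenase, had a log2FC of -0.35 with overlapping ranges (adjusted P = 0.0426, edgeR). That call was lost in 6 of the 8 fits that left out a liver, all but those without FXRKO liver 3 or BCL6LKOFXRKO liver 8, with an adjusted p of 0.0826 to 0.107, and with at least 10 counts required in every liver (0.0563). The count of higher genes in this list was 1 without FXRKO liver 1 or BCL6LKOFXRKO liver 7 and 2 without BCL6LKOFXRKO liver 6.

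Of 24 genes known to regulate liver P450 genes, 8 were called lower and 4 higher (median log2FC -0.23), and 2 were higher without FXRKO liver 2, 3 or 4 or BCL6LKOFXRKO liver 7. Among all tested genes 13.5% were called lower and 16.2% higher. *Hnf4a*, a nuclear receptor that drives many liver P450 genes, was at 859, 863, 559 and 758 CPM in FXRKO livers and at 635, 824, 603 and 613 CPM in BCL6LKOFXRKO livers, with overlapping ranges and a log2FC of -0.18 (adjusted P = 0.410, edgeR). *Nr0b2*, which encodes SHP, a corepressor of nuclear receptors, was at 13.9, 16.6, 10.9 and 7.94 CPM in FXRKO livers and at 1.21, 1.33, 0.486 and 0.453 CPM in BCL6LKOFXRKO livers. The log2FC was -3.85 (SE 0.34, adjusted P = 4.14e-06, edgeR), and the groups did not overlap. *Foxa1*, a pioneer factor of liver genes, fell from 16.5 ± 3.66 to 5.36 ± 2.21 CPM, and *Ppara*, the fatty acid receptor, from 258 ± 38.1 to 130 ± 33.9 CPM (SD, n = 4 for each, adjusted P = 0.000404 and 0.00104, edgeR).

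The growth hormone pathway, on which *Cyp2d9* is known to depend, had members that rose. *Ghr*, the growth hormone receptor, was at 373, 411, 457 and 441 CPM in FXRKO livers and at 2204, 1981, 2347 and 1569 CPM in BCL6LKOFXRKO livers, with a log2FC of 2.27 (SE 0.15, adjusted P = 2.10e-07, edgeR). *Stat5b*, which carries the signal, was at 48.8 ± 8.45 and 46.6 ± 10.2 CPM (SD, n = 4) and was not called (adjusted P = 0.798, edgeR). *Socs2*, a feedback inhibitor induced by the signal, had 24.1, 8.74, 17.2 and 9.35 CPM in FXRKO livers and 38.2, 86.7, 41.0 and 24.8 CPM in BCL6LKOFXRKO livers, with a log2FC of 1.67 (adjusted P = 0.0318, edgeR). The lowest BCL6LKOFXRKO liver lay just above the highest FXRKO liver, and the adjusted p was 0.0586 to 0.0709 without FXRKO liver 2, 3 or 4 or BCL6LKOFXRKO liver 7 and 0.0740 with no filter on low counts. *Cux2*, a repressor with female-predominant expression in mouse liver, was at 0.312, 0.374, 2.15 and 4.72 CPM in FXRKO livers and at 70.5, 96.4, 96.5 and 85.5 CPM in BCL6LKOFXRKO livers, which was the largest rise in this list (log2FC 5.45, standard error 0.56, adjusted P = 0.000242, edgeR). In FXRKO livers the lowest *Cyp2d9* level and the highest *Cux2* level were both in liver 4. Liver 3 had the highest *Cyp2d9* level, 1635 CPM, with *Cux2* at 2.15 CPM, above livers 1 and 2. In FXRKO livers 1 and 2 *Cux2* was about at the floor of 3 counts, so the size of its rise is uncertain. With a liver left out its log2FC ran from 5.09 to 6.48. No relation between *Cux2* and *Cyp2d9* was tested.

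Against the other cytochrome P450 genes, the Cyp2d members were not alone in changing. Of 96 other Cyp genes in the table, *Cyp2d37-ps* included, 62 were tested, of which 25 were called lower and 15 higher (median log2FC -0.18). Of all tested genes, 13.5% were called lower and 16.2% higher. No test of the Cyp2d members against the other Cyp genes was made.

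Within genotypes, the correlations between members over the livers were of both signs. Each liver's deviation from its genotype mean of log2 CPM was taken (n = 8 livers). The highest of the 21 correlations were those of *Cyp2d26* with *Cyp2d40* (Pearson's r = 0.83), *Cyp2d13* with *Cyp2d26* (0.72) and *Cyp2d9* with *Cyp2d10* (0.71). The lowest were those of *Cyp2d9* with *Cyp2d13* (-0.66), *Cyp2d12* with *Cyp2d40* (-0.62) and *Cyp2d12* with *Cyp2d26* (-0.56). The values share libraries and scaling and are a description with few livers. Of 9353 genes outside the family with a mean of at least 50 counts, the most alike in these deviations was *Clpp*, a mitochondrial protease subunit, for *Cyp2d10* (r = 0.981), *Ing3* for *Cyp2d12* (0.959), *Tigar* for *Cyp2d13* (0.974), *AW495222* for *Cyp2d22* (0.990), *Serpina1a*, an alpha-1-antitrypsin, for *Cyp2d26* (0.989) and *Pnpla7* for *Cyp2d40* (0.978). Each of these r is the highest of 9353 over 8 livers, so high values can come from that selection alone, which was not tested. Between genotypes the genes picked did not all move as the member did. *Pnpla7* fell, with a log2FC of -1.13 (adjusted P = 3.74e-05, edgeR), where *Cyp2d40* was not called. *Tigar* fell (log2FC -0.48, adjusted P = 0.0365, edgeR), a call lost without any 1 of FXRKO livers 2, 3 and 4 or BCL6LKOFXRKO livers 5, 7 and 8 (adjusted p of 0.0576 to 0.101). *Clpp*, *Ing3*, *AW495222* and *Serpina1a* had log2FC values between -0.44 and 0.08 and were not called (edgeR, adjusted p of 0.0747 to 0.864), though *AW495222* was called without FXRKO liver 1 (adjusted p = 0.0187) and with total counts as the only scaling (0.0242).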

How the data were processed

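Liver RNA of 4 FXRKO and 4 BCL6LKOFXRKO males was sequenced as 100 bp single-end reads from a stranded kit. The authors used STAR 2.5.2 and mm10, accepting up to 4 mismatches and 1 location for a read, and HOMER 4.10 for the exon counts of each gene, which they deposited unnormalized beside a column of exon lengths. The stated options name no strand.

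The deposited counts were fitted by edgeR 4.0.16 in R 4.3.3 (filterByExpr, TMM factors, robust quasi-likelihood fit, genotype as the only term) and adjusted by Benjamini-Hochberg over 12340 genes. Calls were made at an adjusted p under 0.05. CPM used the TMM factors, and RPKM was CPM per kb of the deposited length. Ratios of members used a pseudocount of 0.5 counts and exact permutation over the 70 orderings of the livers, with t-based 95% intervals. Sequence was compared with Biopython 1.88 in GENCODE M21 transcripts and RefSeq promoters of GRCm38.p6. The members, lists and tests were chosen with earlier results of these data known. Besides the members, *Cyp2d37-ps*, *Bcl6* and *Nr1h4*, the genes named were *Por*, *Cyb5a*, *Alas1*, *Hnf4a*, *Nr0b2* and *Stat5b*, up to 3 called genes per list and direction, taken by their adjusted p, and the gene most like each member (that of *Cyp2d9* is not reported here), and a few neighbours were named for their position. The alternatives were DESeq2 1.42.0, limma 3.58.1 (voom with sample quality weights), scaling by RLE or by total counts alone, 2 other filters, the 50 most counted genes left out before scaling, a fold threshold, a pseudocount of 1 and each liver left out. The fit was tested on simulated data. Nothing states that livers were processed in batches, and each liver is taken as 1 animal.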

Additional observations from a re-analysis of the deposited data

Results flagged for a closer look

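In 4 of 60 groups of 4 livers examined, 1 liver stood apart from the others by Dixon's criterion for a gap relative to the range, and chance gives about 3.0 in that number. BCL6LKOFXRKO liver 6 had the highest *Cyp2d13* level, 48.4 CPM against 30.1 to 30.4 CPM in the other 3 livers, with a gap of 0.985 of the range, and also the highest *Hnf4a* level, 824 CPM against 603 to 635 CPM, with a gap of 0.859. BCL6LKOFXRKO liver 5 was highest for *Cyp2d12*, at 1.91 CPM against 0.606 to 0.816 CPM (gap 0.839), a difference of a few counts. BCL6LKOFXRKO liver 8 was highest for *Hmox2*, at 50.7 CPM against 38.2 to 39.3 CPM (gap 0.908). Without BCL6LKOFXRKO liver 6, *Cyp2d13* was still called lower and *Hnf4a* was still not called, while *Cyp2d12* did not pass the expression filter without BCL6LKOFXRKO liver 5.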

How the results depend on the processing

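The calls of *Cyp2d9*, *Cyp2d13*, *Cyp2d22* and *Cyp2d26* held under all 15 alternatives, with log2FC values of -7.05 to -6.46, -3.19 to -2.92, -0.80 to -0.59 and -0.77 to -0.58. *Cyp2d10* and *Cyp2d40* lost or gained a call as given above. Between 4 and 6 members were called lower and 0 higher, and the ratio of the summed RPKM was 0.39 to 0.46. No pair of members passed an adjusted 0.05 under any of 9 alternatives, and with a liver left out the smallest exact p possible is larger. With total counts alone the median shift of all log2FC values was -0.16, 2956 in place of 1665 genes were called lower, and the share of higher genes among those called was 32.2% against 54.5% with TMM. No paired analysis was possible because the genotypes share no replicate number. Each library has its own number and each liver its own ID, and although some IDs of the 2 genotypes follow each other, no label says that such livers belong together.

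In the small lists the counts moved. Electron transfer genes called lower, 1 in the report, were 2 with voom, 3 with total counts alone, 2 without the 50 most counted genes and 0 to 2 with a liver left out. Heme genes called higher, 0 in the report, were 1 with DESeq2, 1 with voom and 0 to 2 with a liver left out. Regulators called higher, 4 in the report, were 2 with no filter on low counts and 2 to 4 with a liver left out. Neighbours called lower, 1 in the report, were 2 with DESeq2, 3 with voom, 5 with total counts alone and 1 to 4 with a liver left out, and those called higher, 1 in the report, were 2 with no filter and 1 to 3 with a liver left out. Other Cyp genes called higher, 15 in the report, were 9 with at least 10 counts in every liver. For genes that were not called, the sign turned for *Stat5b* with voom (0.0328), for *Clpp* with voom (-0.0318) and total counts alone (-0.0794) and for *Serpina1a* with total counts alone (-0.13). With a liver left out the log2FC values ran from -0.45 to 0.13 for *Alas1*, from -0.21 to 0.0553 for *Stat5b*, from -0.11 to 0.19 for *Clpp* and from -0.0439 to 0.0667 for *Serpina1a*. The differences in log2 ratio then ran from -0.32 to 0.45 for *Cyp2d10* to *Cyp2d12*, from -0.20 to 0.0676 for *Cyp2d10* to *Cyp2d40*, from -0.23 to 0.49 for *Cyp2d12* to *Cyp2d22*, from -0.29 to 0.48 for *Cyp2d12* to *Cyp2d26*, from -0.65 to 0.28 for *Cyp2d12* to *Cyp2d40* and from -0.0921 to 0.0567 for *Cyp2d22* to *Cyp2d26*. The cause of these changes was not tested. With 4 livers a group, an exact permutation p cannot go below 0.0286. At these depths genes of a few counts such as *Cyp2d11*, *Cyp2d12* and *Cyp2d34* could not be compared usefully between genotypes.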

Other observations

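*Nr1h4*, the gene of FXR, was still counted in these FXR knockout livers, at 59.9 ± 2.46 CPM in FXRKO and 43.4 ± 3.69 CPM in BCL6LKOFXRKO livers (SD, n = 4, log2FC -0.46, adjusted P = 0.00498, edgeR), so counts of this gene do not tell the FXR genotype. Among the other regulators listed, *Zhx2*, *Cebpa*, *Cebpb*, *Rxra* and *Nr1i3* were called lower, with log2FC values of -0.85, -0.70, -0.62, -0.60 and -0.64, and *Esr1* higher, with 1.22 (edgeR, adjusted p of 0.00269 to 0.0448). These 6 were named after their values were seen. In *Nr1i3* and *Esr1* the ranges of the genotypes overlapped.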
